A study of Mus musculus with 20 samples.

Results

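In female mice, the BNST (bed nucleus of the stria terminalis) after chronic restraint stress was compared with that of controls. The comparison took 10 of the 20 libraries of the study by their sample titles, 5 from susceptible females (FS) and 5 from control females (FC), with all autosomal genes, 18455 of the 19214 genes in the count tables. The labels give the treatment as a mouse model of anxiety set up by chronic restraint stress (repeated holding in a narrow space), and call the stressed mice susceptible. How susceptibility was judged, the strain, the age and the length of the stress are not stated in the labels. The other 10 libraries, 5 from susceptible males (MS) and 5 from control males (MC), entered the fit for its estimate of spread and are used at the end for a comparison between the sexes. Whether each library stands for its own animal is not stated in the labels, so the p-values measure only how far these libraries spread, and that spread may be technical.

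The BNST is a set of mostly GABAergic nuclei of the ventral forebrain that links the amygdala to hypothalamic and brain stem centres, and it is known for its part in lasting, anxiety-like states. Restraint releases corticotropin-releasing hormone from the hypothalamus and, through the pituitary, corticosterone from the adrenal gland. Corticosterone enters the brain and binds the glucocorticoid receptor Nr3c1 and the mineralocorticoid receptor Nr3c2, which move to the nucleus and bind DNA at glucocorticoid response elements. Neuronal activity acts on another set of promoters, those of the immediate early genes, through cAMP and calcium.

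Each FS library held between 14863126 and 17621275 counts, and each FC library between 15045809 and 17225841. Mitochondrial genes, which are not autosomal, took between 5.38% and 7.37% of the counts in FS libraries and between 4.21% and 5.96% in FC libraries. Levels are given as CPM, read counts scaled to library size with TMM factors, and each value refers to 1 library unless a mean is named. Differences between groups are log2 fold changes of FS over FC from edgeR, with their standard errors (SE). The first principal component of the 10 female libraries held 46.4% of the variance.

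Markers that the BNST shares with other GABAergic regions were present in every library, and markers of neighbouring regions differed widely between libraries. Gad1, which makes GABA, had 839.8, 818, 631, 684 and 643 CPM in FS libraries 1 to 5, and 457, 517, 565, 754 and 696 CPM in FC libraries 1 to 5. Lhx6, a transcription factor of subpallial GABA neurons, had 56.9, 44.8, 25.9, 47.4 and 21.0 CPM in FS libraries, against 9.01, 19.8, 23.9, 57.8 and 36.7 CPM in FC libraries. Both genes were detected in all 10 libraries, with overlapping groups, and the lowest value of each came from FC1. Drd1, the dopamine receptor of striatal projection neurons, had 91.4, 191, 94.4, 46.4 and 208 CPM in FS libraries and 8.16, 53.1, 43.0, 94.1 and 119 CPM in FC libraries. Tcf7l2, a transcription factor of thalamic neurons, had 16.4, 15.4, 222, 96.2 and 8.36 CPM in FS libraries, and 168, 162, 105, 53.2 and 13.8 CPM in FC libraries. Slc17a7, the vesicular glutamate transporter of cortical neurons, had 29.0, 135, 141, 17.1 and 719 CPM in FS libraries, and 42.9, 91.4, 354, 76.6 and 632 CPM in FC libraries. High Slc17a7 thus stood in FS5 and FC5, one library of each group.

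Hypothalamic and choroid plexus transcripts divided the libraries further. Pmch, the melanin-concentrating hormone precursor of the lateral hypothalamus, had 0.396, 0.186, 0.241, 8.35 and 0.216 CPM in FS libraries and 117, 23.6, 11.2, 0.445 and 0.308 CPM in FC libraries. Hcrt, the orexin precursor made by neighbouring lateral hypothalamic cells, had 0.132, 0.249, 0.0601, 4.34 and 0.216 CPM in FS libraries, against 82.5, 28.6, 4.91, 0.191 and 0.554 CPM in FC libraries. Oxt, the oxytocin precursor, had 0.858, 0.559, 16.7, 177 and 0.649 CPM in FS libraries and 82.1, 139, 69.2, 55.2 and 1.78 CPM in FC libraries. Summed over the hypothalamic list, the levels were 26.4, 32.9, 46.7, 467 and 9.37 CPM in FS libraries and 511, 404, 276, 119 and 15.0 CPM in FC libraries. FS4 and FC1 to FC3 held the high sums, FC4 lay between them and the rest, and FC4 carried Oxt but almost no Pmch. Ttr, the transthyretin of choroid plexus, had 541, 30.1, 2000.2, 37.4 and 36.5 CPM in FS libraries and 21.6, 1633, 1947, 14.6 and 17.7 CPM in FC libraries. It was above 100 CPM in FS1, FS3, FC2 and FC3. The fold changes of 112 named genes and the list medians, both for FS over FC, were therefore also computed without the 4 female libraries over 1 CPM of Pmch (4 FS and 2 FC libraries left), without the 4 female libraries over 100 CPM of Ttr (3 and 3 left), without FS5 and FC5, the 2 female libraries over 400 CPM of Slc17a7 (4 and 4 left), and with the difference of the striatal and thalamic list scores as a covariate. Male libraries over these limits were left out of the same fits: MS5 for Pmch, MS2, MS5 and MC5 for Ttr, and MC5 for Slc17a7.

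**Figure D1:**
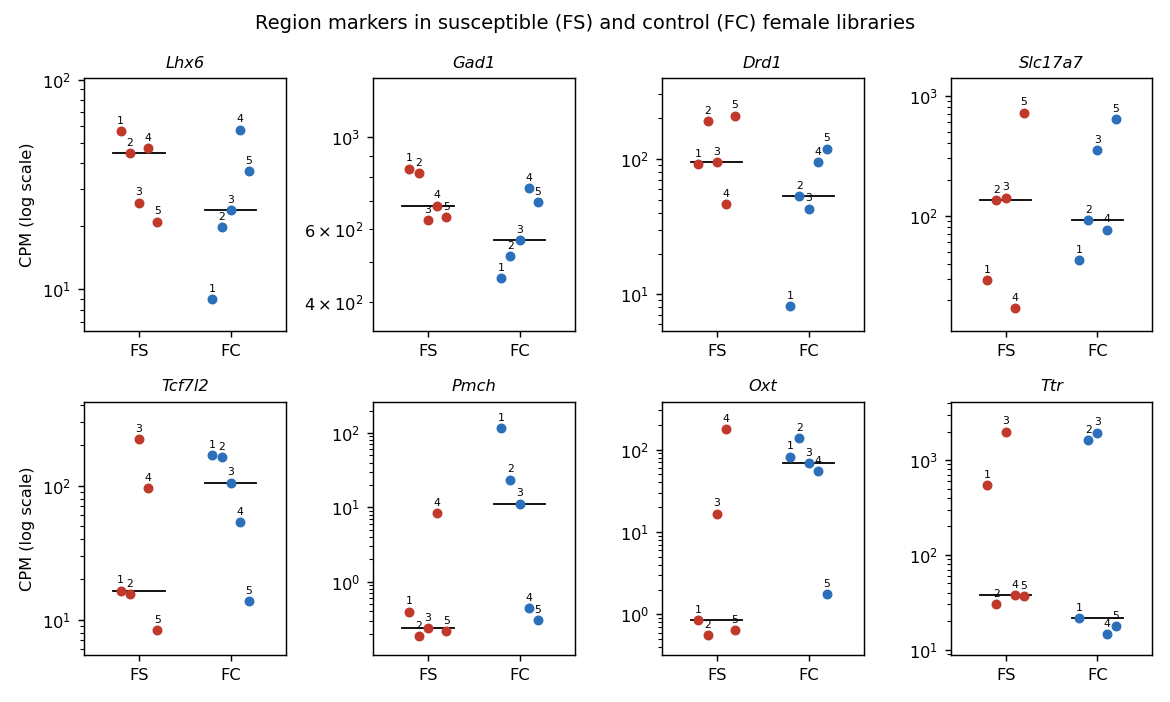
Levels of 8 marker genes in CPM (log axis) in the 5 FS and 5 FC libraries. Points are libraries with their replicate number and bars are medians; Pmch is above 1 CPM in FS4 and FC1 to FC3, and Ttr is above 100 CPM in FS1, FS3, FC2 and FC3.

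No autosomal gene passed an adjusted p of 0.05 between FS and FC libraries. The count was 0 of 14322 autosomal genes tested (0%) with the quasi-likelihood test of edgeR and Benjamini-Hochberg adjustment over all 14884 genes tested, and 0 with DESeq2 and with limma voom. The smallest adjusted p of edgeR was 0.773. Without adjustment, 831 genes (5.8%) had p under 0.05, against 716 expected by chance, 434 of them higher (3.03%) and 397 lower (2.77%) in FS libraries; DESeq2 gave 911 and limma voom 1332. That count depended on single libraries: it was 1853 without FS4 and 1772 without FC5, and 488, 480 and 483 without FC1, FC2 and FC3. Without FS4, 2 genes had an adjusted edgeR p of 0.0234, Nyap1 at −0.35 and Sstr1 at −0.97 on the log2 scale. The 5 FS and 5 FC libraries did not overlap in 68 genes (0.475%), of which 47 stood higher (0.328%) and 21 lower (0.147%) in FS libraries. By exact permutation of 5 against 5 libraries, chance gives no overlap with a probability of 0.00794 per gene. The observed share lay under that, so a lack of overlap does not by itself set a gene apart. In simulated counts of the same depth, the test called 86% of the genes given a 2-fold change and 50% of the genes given a 1.5-fold change. Genes were drawn independently of each other, and apart from the changed genes all libraries shared the same means. The simulation thus held no marker differences between libraries, and its shares cannot be carried over to these data. In the data, 62 genes were fitted beyond 1 and 725 beyond 0.5 on the log2 scale in either direction, with 0 called. Fitted differences were small, with a median of 0.0057 and with 10th and 90th percentiles of −0.25 and 0.23 on the log2 scale. Since no gene passed, all values for single genes below are estimates, and every p is an unadjusted p from edgeR unless an adjusted one is named.

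**Figure D2:**
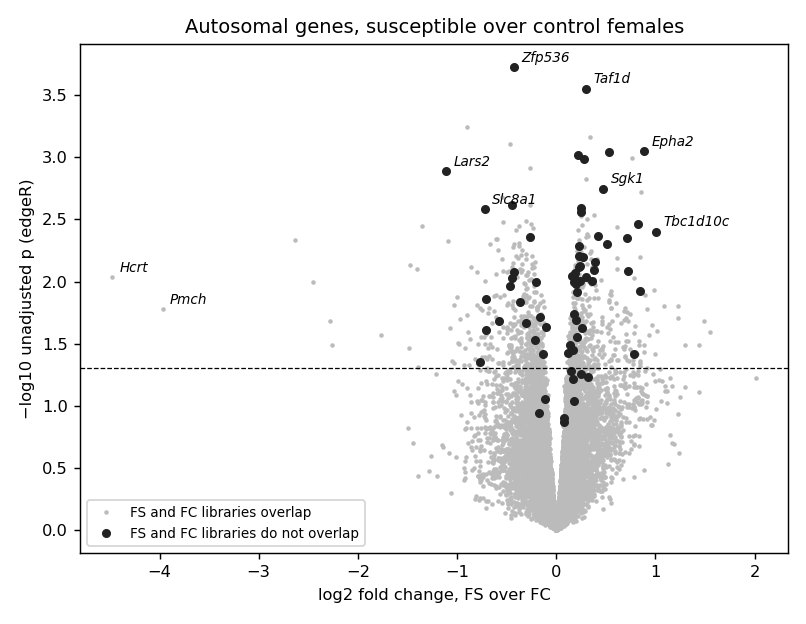
Log2 fold change of FS over FC (x axis) against −log10 of the unadjusted edgeR p (y axis) for the 14322 autosomal genes tested. No gene reached an adjusted p of 0.05. Named points were picked from the genes described in the text and are not all those with the smallest p.

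The single genes with the smallest p were led by a transcription factor that stood lower in FS libraries. Zfp536 (chromosome 7, 37472135-37773641, GRCm38), a zinc finger repressor of neuronal differentiation genes, had 16.3, 20.9, 20.4, 22.3 and 22.1 CPM in FS libraries, against 26.3, 28.8, 26.9, 24.2 and 30.7 CPM in FC libraries. All FS values lay under all FC values, and the log2 fold change was −0.42 (SE 0.09, unadjusted edgeR p 0.000187). Under the 22 alternatives its estimate kept its sign, between −0.46 and −0.32.
Slc8a1 (chromosome 17, 81373105-81738377), the sodium-calcium exchanger of the cell membrane, had 8.91, 17.7, 18.4, 17.9 and 14.8 CPM in FS libraries, and 30.9, 25.0, 27.4, 19.3 and 25.4 CPM in FC libraries. The groups did not overlap, and the log2 fold change was −0.72 (SE 0.21, unadjusted edgeR p 0.00261).
Lars2 (chromosome 9, 123366927-123462666), the mitochondrial leucyl-tRNA synthetase, had 137, 105, 133, 100.2 and 119.8 CPM in FS libraries and 376, 388, 231, 147 and 143 CPM in FC libraries. The groups did not overlap, but FC1, FC2 and FC3, the libraries over 1 CPM of Pmch, held the high values. The log2 fold change of Lars2 was −1.11 (SE 0.29), and −0.22 (unadjusted edgeR p 0.489) without the libraries over 1 CPM of Pmch. Of the 17 mitochondrial tRNA synthetases, 10 stood lower, 2 of them (Lars2 and Aars2) at unadjusted p under 0.05, and Nars2 stood higher at that level. Among all genes, 2.77% stood lower and 3.03% higher at that level.

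Other genes with small p that stood lower in FS libraries have varied roles. Plxnb1, the plexin that binds semaphorin 4D, averaged 139 ± 10.7 CPM in FS libraries and 168 ± 11.6 CPM in FC libraries (SD, n = 5 each), a log2 fold change of −0.27. Sema4c, a membrane semaphorin, averaged 14.4 ± 1.27 CPM in FS libraries and 17.2 ± 1.69 CPM in FC libraries. Fat4, a giant atypical cadherin, averaged 9.54 ± 2.47 CPM in FS libraries and 13.9 ± 1.88 CPM in FC libraries. Dock5, an activator of the small GTPase Rac, stood at −0.55, Nyap1, a neuronal adaptor of PI3 kinase, at −0.27, Tmem200c at −0.46 and Mum1 at −0.30 on the log2 scale. These 7 genes overlapped between the groups in at least 1 library. Has1, a hyaluronan synthase, P2rx3, an ATP-gated channel, Pelo, a ribosome rescue factor, and Slc45a3 did not overlap, at low levels, with log2 fold changes of −0.47, −0.70, −0.43 and −0.71. Several of these estimates were smaller under other choices of libraries: Dock5 stood at −0.21 and Slc45a3 at −0.21 (unadjusted edgeR p 0.602) without the libraries over 1 CPM of Pmch, and Fat4 at −0.24, Plxnb1 at −0.14 and Sema4c at −0.13 with the libraries high in Ttr left out.

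Among genes that stood higher in FS libraries, Taf1d (chromosome 9, 15306214-15316991), a subunit of the factor that places RNA polymerase I on ribosomal DNA, had the smallest p. It had 25.4, 27.04, 27.4, 26.0 and 28.5 CPM in FS libraries and 21.4, 20.1, 19.8, 23.1 and 24.4 CPM in FC libraries. The groups did not overlap, and the log2 fold change was 0.31 (SE 0.07, unadjusted edgeR p 0.000278), or 0.19 with the libraries high in Pmch left out. The other genes of the nucleolus and polymerase I did not stand out beside it: 14 of 20 tested were fitted higher, with a median of 0.03 and with no further member at unadjusted p under 0.05.
Cd302, a C-type lectin receptor, had 16.4, 15.1, 11.2, 11.0 and 12.97 CPM in FS libraries against 6.69, 9.10, 10.01, 9.47 and 10.9 CPM in FC libraries, so the groups met without overlap. Its log2 fold change was 0.53 (SE 0.14, unadjusted edgeR p 0.000898), between 0.38 and 0.60 under the 22 alternatives.
St8sia2, the polysialyltransferase that adds polysialic acid to the adhesion molecule Ncam1, had 21.6, 19.5, 15.99, 17.8 and 18.2 CPM in FS libraries and 15.8, 13.7, 8.49, 13.9 and 13.2 CPM in FC libraries. It did not overlap, at a log2 fold change of 0.51 (SE 0.16, unadjusted edgeR p 0.00495).

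Epha2 (chromosome 4, 141301240-141329384), a receptor tyrosine kinase for ephrin-A ligands, had 1.91, 1.74, 1.68, 2.00 and 3.10 CPM in FS libraries and 1.13, 1.27, 1.39, 0.762 and 1.05 CPM in FC libraries. It did not overlap, with a log2 fold change of 0.89 (SE 0.23, unadjusted edgeR p 0.000895). Epha10 stood in the other direction, at 49.7, 46.4, 54.5, 57.9 and 61.5 CPM in FS libraries and 72.6, 65.3, 81.2, 56.4 and 74.1 CPM in FC libraries, a log2 fold change of −0.37 (SE 0.12, unadjusted edgeR p 0.00486). Epha5 also stood lower, by a log2 fold change of −0.30, and the 19 ephrins and Eph receptors tested had a median of 0.02. Further genes with small p and higher values in FS libraries were Gsdme, a pore-forming gasdermin (log2 fold change 0.28), and Rnf103, an endoplasmic reticulum ubiquitin ligase (0.22), both without overlap. Bbip1, a subunit of the ciliary BBSome (0.34), Shisa2, which holds Wnt and FGF receptors in the endoplasmic reticulum (0.77), Sfxn4, a mitochondrial sideroflexin (0.30), and Smim24 (0.85, and 0.37 with the libraries high in Pmch left out) overlapped between the groups. Itga11, a collagen-binding integrin, Tbc1d10c, a Rab GTPase-activating protein of lymphocytes, and Tnfrsf10b, a death receptor for TRAIL, did not overlap, with log2 fold changes of 0.71, 1.005 and 0.72 at levels under 5 CPM.

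**Figure D3:**
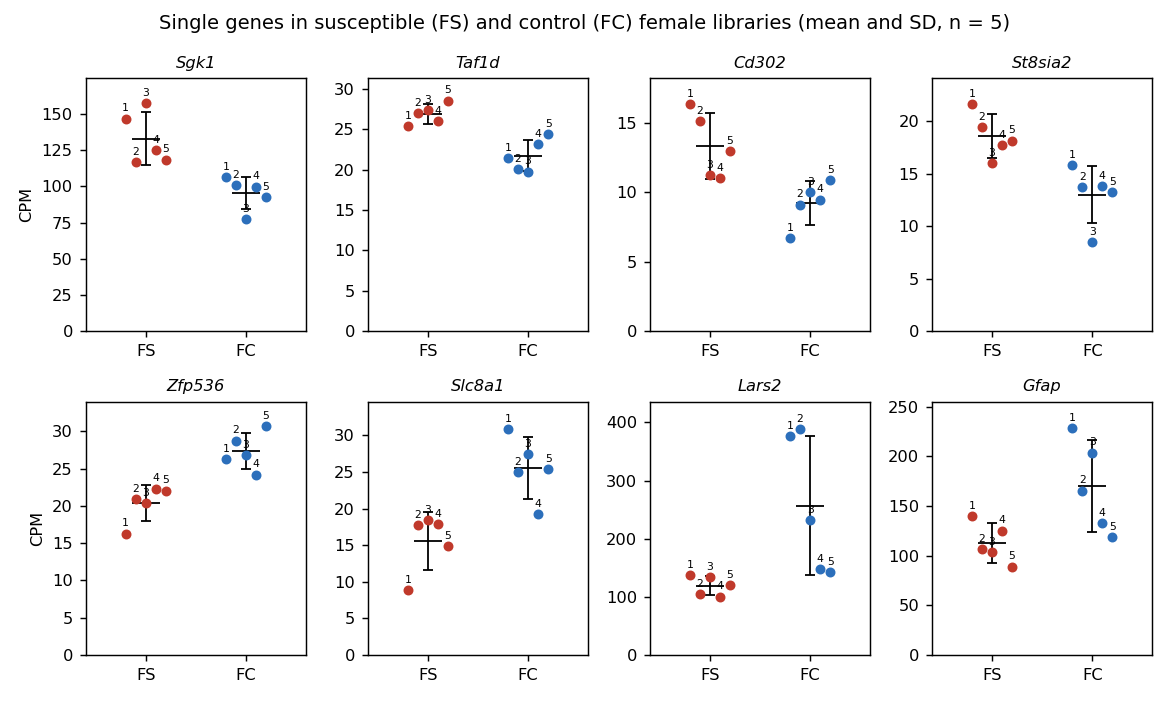
Levels of 8 genes in CPM in the 5 FS and 5 FC libraries. Points are libraries with their replicate number and bars are means with SD; Sgk1, Taf1d, Cd302 and St8sia2 stand higher and Zfp536, Slc8a1 and Lars2 lower in FS libraries without overlap, while Gfap overlaps.

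Glucocorticoid signalling was examined from the receptors to their targets. Nr3c1, the glucocorticoid receptor, had 92.7, 116, 138, 113 and 130.2 CPM in FS libraries and 126, 135, 131, 121 and 110.0 CPM in FC libraries. The groups overlapped, with a log2 fold change of −0.077 (SE 0.09, unadjusted edgeR p 0.401), whose sign turned without the libraries over 1 CPM of Pmch (0.050). Nr3c2, the mineralocorticoid receptor, averaged 54.0 ± 14.6 CPM in FS libraries and 45.1 ± 11.6 CPM in FC libraries (SD, n = 5 each), also with overlap. Of 14 genes for the receptors, their chaperones and the enzymes that make or remove corticosterone, 6 were fitted higher and 8 lower in FS libraries, with a median of −0.01 and no member at unadjusted p under 0.05. Fkbp5, the immunophilin that the receptor induces and that lowers its affinity, had 33.6, 36.5, 29.9, 28.9 and 46.8 CPM in FS libraries, against 30.8, 28.1, 31.4, 36.1 and 35.3 CPM in FC libraries. These overlapped, and the log2 fold change of 0.12 (SE 0.28) turned to −0.0061 without FS5.

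Sgk1 (chromosome 10, 21882184-21999903), the serum- and glucocorticoid-regulated kinase and a widely used readout of receptor activity, had 147, 117, 158, 125 and 118 CPM in FS libraries and 106, 101, 77.6, 99.9 and 92.8 CPM in FC libraries. All 5 FS libraries stood above all 5 FC libraries. The log2 fold change was 0.48 (SE 0.13, unadjusted edgeR p 0.00179), and it lay between 0.27 and 0.55 under the alternatives, lowest when the libraries high in Ttr were left out. The same contrast in males gave 0.49. Arl4d, a small GTPase of the ARF family, had 26.9, 26.4, 18.3, 15.1 and 39.4 CPM in FS libraries and 9.41, 14.8, 16.6, 16.1 and 25.2 CPM in FC libraries, with overlap, at a log2 fold change of 0.62 (SE 0.24, unadjusted edgeR p 0.0185), and of 0.31 with the region score as a covariate. Sgk1 and Arl4d were the members of the 26 tested glucocorticoid targets at unadjusted p under 0.05 in that direction, and no member stood lower at that level. Among all genes, 3.03% stood higher and 2.77% lower at that level. Across the list 18 members were fitted higher and 8 lower, with a median of 0.10 and a range of −1.06 to 0.62, where 51.4% of all autosomal genes tested were fitted higher. Mt1 and Mt2, metallothioneins that bind zinc and whose reads may be shared between near-identical copies, had log2 fold changes of 0.12 and 0.40. Fam107a, an actin-binding protein of astrocytes and neurons induced by stress, averaged 358 ± 81.2 CPM in FS libraries and 334 ± 72.6 CPM in FC libraries (SD, n = 5 each).

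Promoter sequences of the targets are shown because Sgk1 was the only one of the 26 tested targets without overlap between the groups. Among all genes 0.475% did not overlap, a share under that given by chance, so this does not by itself set Sgk1 apart. Of the 26 targets, 23 matched the RefSeq promoter windows of GRCm38.p6, which run from 250 bases before to 50 bases after each start site. Windows were searched on both strands for the glucocorticoid response element written as GNACANNNTGTNC, the cAMP response element TGACGTCA and the E-box CACGTG, the site of clock and other bHLH factors. The response element was found in 0.475% of all 32851 windows and in at least 1 window of 0.431% of the 11145 tested genes matched, against 3 of the 23 matched targets, Sgk1, Fam107a and Mt1. The cAMP element was in 1.79% of windows and 3.45% of tested genes, and in 3 of the 23 targets, Arl4d, Dusp1 and Errfi1. The E-box was in 7.15% of windows and 11.1% of tested genes, and in 5 of the 23 targets. No match of one motif overlapped a match of another in the windows printed. A match describes these letters and not a bound site. Capitals mark the response element in Sgk1 (chr10:21993640-21993939, plus strand, 1 of 6 windows of the gene), Fam107a (chr14:8309730-8310029, minus strand) and Mt1 (chr8:94178839-94179138, plus strand), the cAMP element in Arl4d (chr11:101665291-101665590, plus strand) and the E-box in Per1 (chr11:69098699-69098998, plus strand).
Sgk1: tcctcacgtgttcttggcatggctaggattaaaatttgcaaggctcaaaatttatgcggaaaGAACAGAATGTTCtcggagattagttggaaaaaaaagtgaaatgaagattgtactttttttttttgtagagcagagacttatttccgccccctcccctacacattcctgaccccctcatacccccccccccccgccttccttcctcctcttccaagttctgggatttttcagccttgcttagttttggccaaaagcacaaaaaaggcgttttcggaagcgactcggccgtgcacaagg
Fam107a: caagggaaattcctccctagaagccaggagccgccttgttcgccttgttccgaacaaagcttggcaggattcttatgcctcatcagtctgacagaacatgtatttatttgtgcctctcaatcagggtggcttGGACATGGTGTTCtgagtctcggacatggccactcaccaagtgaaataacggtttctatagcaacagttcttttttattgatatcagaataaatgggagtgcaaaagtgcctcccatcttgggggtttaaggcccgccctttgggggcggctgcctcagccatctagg
Mt1: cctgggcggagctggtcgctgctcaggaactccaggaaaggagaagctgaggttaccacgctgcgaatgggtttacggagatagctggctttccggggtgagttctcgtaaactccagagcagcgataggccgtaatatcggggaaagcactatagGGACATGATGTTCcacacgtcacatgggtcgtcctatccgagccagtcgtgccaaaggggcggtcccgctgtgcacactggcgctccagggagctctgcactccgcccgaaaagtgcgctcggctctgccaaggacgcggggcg
Arl4d: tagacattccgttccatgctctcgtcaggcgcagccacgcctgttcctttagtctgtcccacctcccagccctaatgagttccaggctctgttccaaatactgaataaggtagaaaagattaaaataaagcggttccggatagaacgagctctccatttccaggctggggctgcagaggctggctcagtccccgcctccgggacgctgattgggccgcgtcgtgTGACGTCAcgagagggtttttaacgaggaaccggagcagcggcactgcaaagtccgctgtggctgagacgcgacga
Per1: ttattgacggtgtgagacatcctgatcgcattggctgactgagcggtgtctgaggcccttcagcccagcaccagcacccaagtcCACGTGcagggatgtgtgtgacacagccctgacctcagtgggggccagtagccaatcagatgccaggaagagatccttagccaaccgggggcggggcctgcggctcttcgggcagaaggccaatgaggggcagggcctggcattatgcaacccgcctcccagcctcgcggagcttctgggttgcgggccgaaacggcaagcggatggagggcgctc
The Sgk1 match lies 175 bases before the start site and reads GAACAGAATGTTC, a complete palindrome apart from its middle bases, and the same window holds an E-box in lower case near its 5′ end. The Fam107a and Mt1 matches lie 105 and 81 bases before the start. Fam107a and Mt1 overlapped between FS and FC libraries, unlike Sgk1.

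Genes of neuronal activity were fitted higher in FS libraries in most cases, and the estimates depended on which libraries were kept. Fosb, an AP-1 subunit that builds up with repeated activity, had 26.1, 34.2, 17.3, 17.1 and 37.3 CPM in FS libraries and 5.72, 7.89, 9.75, 12.4 and 31.9 CPM in FC libraries. Every FS library stood above FC1 to FC4, and FC5 stood among the FS libraries. The log2 fold change was 0.96 (SE 0.39, unadjusted edgeR p 0.0223). Fosb was the only 1 of 34 immediate early genes tested at unadjusted p under 0.05 (3.03% of all genes stood higher at that level). Nr4a3, an orphan nuclear receptor, had 40.4, 77.0, 47.0, 36.4 and 93.0 CPM in FS libraries, against 14.5, 21.8, 26.1, 26.2 and 83.2 CPM in FC libraries, again with FC5 among the FS libraries. Its log2 fold change was 0.77 (SE 0.37, unadjusted edgeR p 0.0534). Fos, the classic marker of recent activity, had 46.0, 36.7, 47.8, 49.1 and 36.9 CPM in FS libraries and 30.1, 33.6, 33.2, 29.1 and 52.7 CPM in FC libraries, a log2 fold change of 0.28 (SE 0.24).
Of the 34 genes, 30 were fitted higher (51.4% of all genes), with a median of 0.26. FC5 and FS5 are the 2 female libraries over 400 CPM of Slc17a7, and without them 29 of the 34 genes were fitted higher, with a median of 0.42, and Fosb stood at 1.40 (unadjusted edgeR p 0.000153). That choice was added after seeing the data. It leaves out FC5, the control with the highest Fosb, Nr4a3 and Fos, and FS5, the FS library with the highest Fosb and Nr4a3. It is therefore no independent check of these genes. Without the libraries over 1 CPM of Pmch the median was 0.12 and Fosb stood at 0.38 (unadjusted edgeR p 0.351), Nr4a3 at 0.23 and Fos at 0.036. The CRE was in 3 of the 27 immediate early genes matched to promoter windows (Btg2, Dusp1 and Ppp1r15a), beside 3.45% of tested genes, and the glucocorticoid element in 0, beside 0.431%. Btg2 had a log2 fold change of −0.03.

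The circadian clock, whose period genes also answer to glucocorticoids and activity, was measured in 21 genes, 15 fitted higher and 6 lower, with a median of 0.10 and none at unadjusted p under 0.05. Per1 had 139, 171, 144, 118 and 198 CPM in FS libraries and 97.5, 120.5, 99.7, 113 and 188 CPM in FC libraries. Only FC5 and FC2 among the controls reached the FS range, and the log2 fold change was 0.32 (SE 0.18, unadjusted edgeR p 0.0926), or 0.12 with the libraries high in Pmch left out. Npas2, a partner of the clock factor Arntl, averaged 50.4 ± 19.5 CPM in FS libraries and 34.5 ± 12.9 CPM in FC libraries, and Per2 averaged 66.2 ± 20.9 CPM in FS libraries and 49.0 ± 15.6 CPM in FC libraries (SD, n = 5 each). The hour of tissue collection is not stated in the labels.

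Of the 41 gene lists, the hypothalamic, striatal and thalamic ones had the medians farthest from 0. All 25 genes of striatal projection neurons were fitted higher in FS libraries (51.4% of all genes), with a median of 0.79. Of them, 5 had unadjusted p under 0.05 (3.03% of all genes stood higher at that level). Foxp1, a transcription factor of these neurons, had 88.1, 206, 123, 69.1 and 283 CPM in FS libraries against 56.7, 93.2, 75.2, 98.9 and 121 CPM in FC libraries, and Ptpn5, the striatum-enriched phosphatase, averaged 448 ± 135 CPM in FS libraries and 326 ± 68.9 CPM in FC libraries. Both overlapped. The summed level of the striatal list ran from 3106 to 11790 CPM in FS libraries and from 1461 to 6399 CPM in FC libraries, highest in FS5 and lowest in FC1. In bulk RNA a different share of such cells and a different level per cell cannot be told apart, and neither can a different cut of the tissue. Genes of the BNST and its subpallial relatives were fitted higher in 17 of 19, with a median of 0.30, and of 0.024 when the libraries high in Pmch were left out. Among them Six3, a homeobox factor, had 84.1, 77.7, 81.5, 81.7 and 57.0 CPM in FS libraries and 48.6, 67.1, 64.0, 64.0 and 49.6 CPM in FC libraries. Only FS5 overlapped the controls, and the log2 fold change of Six3 was 0.38 (SE 0.11, unadjusted edgeR p 0.00292), between 0.32 and 0.47 under the alternatives. Dlx6 and Pbx3, 2 further homeobox factors, stood at 0.54 and 0.46.

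Lists of neighbouring regions lay on the other side. Thalamic genes were fitted lower in 17 of 20 (median −0.48), hypothalamic genes in 14 of 16 (median −0.92) and choroid plexus and ependymal genes in 14 of 20 (median −0.39), while 11 of 18 cortical excitatory genes were fitted higher (median 0.17). Among all genes, 48.6% were fitted lower and 51.4% higher. Hcrt, Pmch, Agrp and Hdc, of the hypothalamic list, had unadjusted edgeR p under 0.05 (2.77% of all genes stood lower at that level). Their log2 fold changes were −4.47, −3.97, −1.03 and −1.48, and those of Hcrt and Pmch rest on 0.0601 to 0.396 CPM in 4 FS libraries and so depend on the fit at low counts. Leaving out single libraries moved these values: Hcrt stood at −3.04 without FC1 and −7.10 without FS4, Pmch at −2.20 without FC1 and −6.84 without FS4, and Agrp at −0.40 without FC1. Without the libraries over 1 CPM of Pmch, all 20 thalamic genes were fitted higher in FS libraries (median 0.89) and the striatal median was 0.46. With the libraries high in Ttr left out, the striatal median was 0.94, the thalamic one −0.97 and the hypothalamic one −0.02. The thalamic list thus took opposite signs with the libraries kept, and so did the choroid plexus list, at 1.90 without the libraries over 1 CPM of Pmch.

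Stress peptides and their receptors gave few differences beyond the hypothalamic genes. Crh, corticotropin-releasing hormone, had 7.45, 3.92, 8.78, 12.6 and 4.25 CPM in FS libraries and 4.59, 5.59, 6.23, 9.53 and 4.43 CPM in FC libraries, with overlap and a log2 fold change of 0.29 (SE 0.28, unadjusted edgeR p 0.314). The Crh estimate turned to −0.19 when the libraries high in Pmch were left out. Of 10 genes of the CRH and PACAP systems, 3 were fitted higher and 7 lower, none at unadjusted p under 0.05. Of 25 neuropeptides, 16 were fitted lower, 4 at that level (Hcrt, Pmch, Agrp and the granin Chga), beside 2.77% of all genes. Of 26 peptide receptors, 2 stood lower at that level. Sstr1, a somatostatin receptor, had 8.84, 6.28, 7.16, 19.5 and 8.36 CPM in FS libraries and 17.3, 15.1, 15.0, 16.1 and 11.4 CPM in FC libraries. The other 4 FS libraries lay under every FC library, and FS4, which carried hypothalamic transcripts, lay above them all. The log2 fold change of Sstr1 was −0.57 (SE 0.23, unadjusted edgeR p 0.0201), and −0.97 with an adjusted edgeR p of 0.0234 when FS4 was left out. Galr1, a galanin receptor, stood at −0.71, and the 10 genes of sex steroid synthesis and reception had a median of −0.17 with none at unadjusted p under 0.05.

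Lists of neurotransmission were measured from receptors to release and clearance. Htr1b, the serotonin 1B receptor, had 36.5, 59.0, 42.1, 30.8 and 74.9 CPM in FS libraries and 18.6, 25.6, 26.6, 39.2 and 31.4 CPM in FC libraries, with FC4 and FC5 inside the FS range and a log2 fold change of 0.78 (SE 0.27, unadjusted edgeR p 0.00936). Drd2, which is also in the striatal list, was the other of 21 monoamine receptors at unadjusted p under 0.05. Among all genes, 3.03% stood higher and 2.77% lower at that level, the shares to set beside the counts of each list here. Doc2a, a calcium sensor of vesicle release, averaged 7.90 ± 3.52 CPM in FS libraries and 12.03 ± 1.85 CPM in FC libraries (SD, n = 5 each), and Syn2, a synapsin, stood at −0.20, in a list with 16 of 24 fitted lower. Kcnc1, a fast potassium channel, stood at −0.30 and Cacna1b at −0.17 among 35 ion channels with a median of −0.01, where Kcna4 stood at 0.38. Shank1 and Grin3a stood at −0.27 and −0.44 among 29 glutamate receptor genes (median 0.05). GABA-A receptor subunits had none of 13 at unadjusted p under 0.05, and GABA handling had Kctd12 alone of 14, at 0.39. Chrm5 at −0.89, Faah at −0.31 and Vegfa at −0.16 were the members at that level among 18 cholinergic, 9 endocannabinoid and 15 neurotrophin genes, and none of 11 monoamine handling genes was. Of the 18 cholinergic genes, 11 were fitted higher, with a median of 0.34 and a largest value of 1.16, and the median was −0.035 with the libraries high in Pmch left out and 0.074 without FC1.

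Oligodendrocyte and astrocyte lists leaned lower in FS libraries. Of 23 microglia and macrophage genes, 13 were fitted higher (56.5%), near the 51.4% of all genes. All 26 oligodendrocyte genes tested were fitted lower (48.6% of all genes), between −0.50 and −0.14, with a median of −0.27. Of them, 2 had unadjusted p under 0.05 (2.77% of all genes stood lower at that level). Mobp, a myelin protein, had 945, 823, 1075, 915 and 979 CPM in FS libraries and 1293, 1432, 1339, 1009 and 836 CPM in FC libraries. Only FC1 to FC3 lay above all FS libraries, and without the libraries over 1 CPM of Pmch the log2 fold change of Mobp, −0.32 (SE 0.14), was 0.055. Under that choice 14 of the 26 genes were fitted higher, with a median of 0.0054. The summed oligodendrocyte list ran from 5649 to 7299 CPM in FS libraries and from 5636 to 9487 CPM in FC libraries. Oligodendrocyte precursor genes were fitted lower in 11 of 14, with Cacng4 the one at unadjusted p under 0.05, at 0.26.

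Gfap, the intermediate filament of astrocytes, had 139.7, 107, 103, 125 and 88.9 CPM in FS libraries and 229, 165, 204, 132 and 119 CPM in FC libraries. FS1 lay above FC4 and FC5, and FS4 above FC5, with a log2 fold change of −0.59 (SE 0.19, unadjusted edgeR p 0.00555). Fgfr3, a growth factor receptor of astrocytes, had 109, 125, 125, 136 and 106 CPM in FS libraries, against 152, 154, 143, 148 and 119 CPM in FC libraries, and FC5 alone lay within the FS range. Of 20 astrocyte genes, 17 were fitted lower (median −0.15). At unadjusted p under 0.05 stood 4 of them (2.77% of all genes), among them Gfap, Fgfr3 and Aqp4. Slc1a2, a further astrocyte marker, had 2214, 3616, 2398, 1683 and 4019 CPM in FS libraries and 2197, 2167, 2501, 2605 and 3331 CPM in FC libraries. Slc1a3 ran from 561.7 to 848.3 CPM in FS libraries and from 596.1 to 772 CPM in FC libraries. The summed astrocyte list overlapped too, at 6937 to 8551 CPM in FS and 7796 to 8234 CPM in FC libraries. Gfap stood at −0.19 (unadjusted edgeR p 0.348) without the libraries over 1 CPM of Pmch, and the median of the list was −0.045.

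Cholesterol and fatty acid synthesis, which in brain runs in glia above all, leaned lower in FS libraries as well. Of 28 genes, 27 were fitted lower, with a median of −0.20 and 7 at that level, among them Mvk, Fasn, Acaca, Scd1, Scd2 and Elovl6, against 2.77% of all genes. Fasn, the fatty acid synthase, had 291, 355, 353, 385 and 346 CPM in FS libraries, against 439, 463, 413, 343 and 377 CPM in FC libraries. FC1 to FC3 lay above every FS library and FC4 and FC5 within the FS range. The log2 fold change of Fasn was −0.23 (SE 0.08), and −0.095 without the libraries over 1 CPM of Pmch, where 9 of the 28 genes were fitted higher. Adamts4, a matrix protease of oligodendrocytes, had 24.3, 32.7, 40.6, 35.9 and 28.8 CPM in FS libraries and 47.4, 61.4, 59.0, 42.4 and 37.6 CPM in FC libraries, the lowest p of the perineuronal matrix list (log2 fold change −0.61, SE 0.21, unadjusted edgeR p 0.00868). Without the libraries over 1 CPM of Pmch Adamts4 stood at −0.33 (unadjusted edgeR p 0.27).

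Immune and vascular lists lay close to all genes. Microglia and macrophage genes had a median of 0.01 with 13 of 23 fitted higher, and Cd163, a haemoglobin scavenger receptor of perivascular macrophages, was the one at unadjusted p under 0.05, at 0.73. Interferon and MHC genes had a median of 0.02, NF-kappaB targets one of −0.08, endothelial and pericyte genes one of 0.05 and red cell genes one of −0.05, all with no member at that level. Meningeal fibroblast genes were fitted lower in 18 of 19 (median −0.32), with Col3a1 at −0.54 (−0.10 with the libraries high in Ttr left out) and Aldh1a2 at −0.58, and with a median of −0.043 without the libraries over 100 CPM of Ttr.

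Genes of protein synthesis and energy were shifted by small amounts. Of 75 ribosomal protein genes, 69 were fitted higher in FS libraries, with a median of 0.10 and 7 at unadjusted p under 0.05 (Rpl6, Rpl12, Rpl13a, Rpl27a, Rps3a1, Rps7 and Rps20). Of all autosomal genes tested, 51.4% were fitted higher, and 3.03% stood higher at that level. Rps7 had 217, 172, 157, 157 and 165 CPM in FS libraries and 146, 138, 156, 160.2 and 159 CPM in FC libraries, with FS1 far above the rest. The summed list reached 13170 CPM in FS1 and ran from 9401 to 10330 CPM in FS2 to FS5, against 9496 to 10260 CPM in FC libraries. Counting could split reads of these genes with their processed pseudogenes. Of 72 nuclear genes of oxidative phosphorylation, 52 were fitted higher, with a median of 0.04, which turned to −0.039 when the libraries high in Ttr were left out, and none at that level. Of 26 heat shock and unfolded protein genes, 21 were fitted higher (median 0.07), and Hspb1, a small heat shock protein, averaged 6.70 ± 1.81 CPM in FS libraries and 4.52 ± 1.14 CPM in FC libraries (SD, n = 5 each). Its log2 fold change of 0.57 was 0.26 with the libraries high in Ttr left out. FS1 and FS2 also had the highest mitochondrial shares, 7.22% and 7.37%, and the median log2 fold change by exon length was 0.03 in the quintile of shortest genes and −0.02 in that of the longest. The part of these values in the ribosomal list was not tested.

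**Figure D4:**
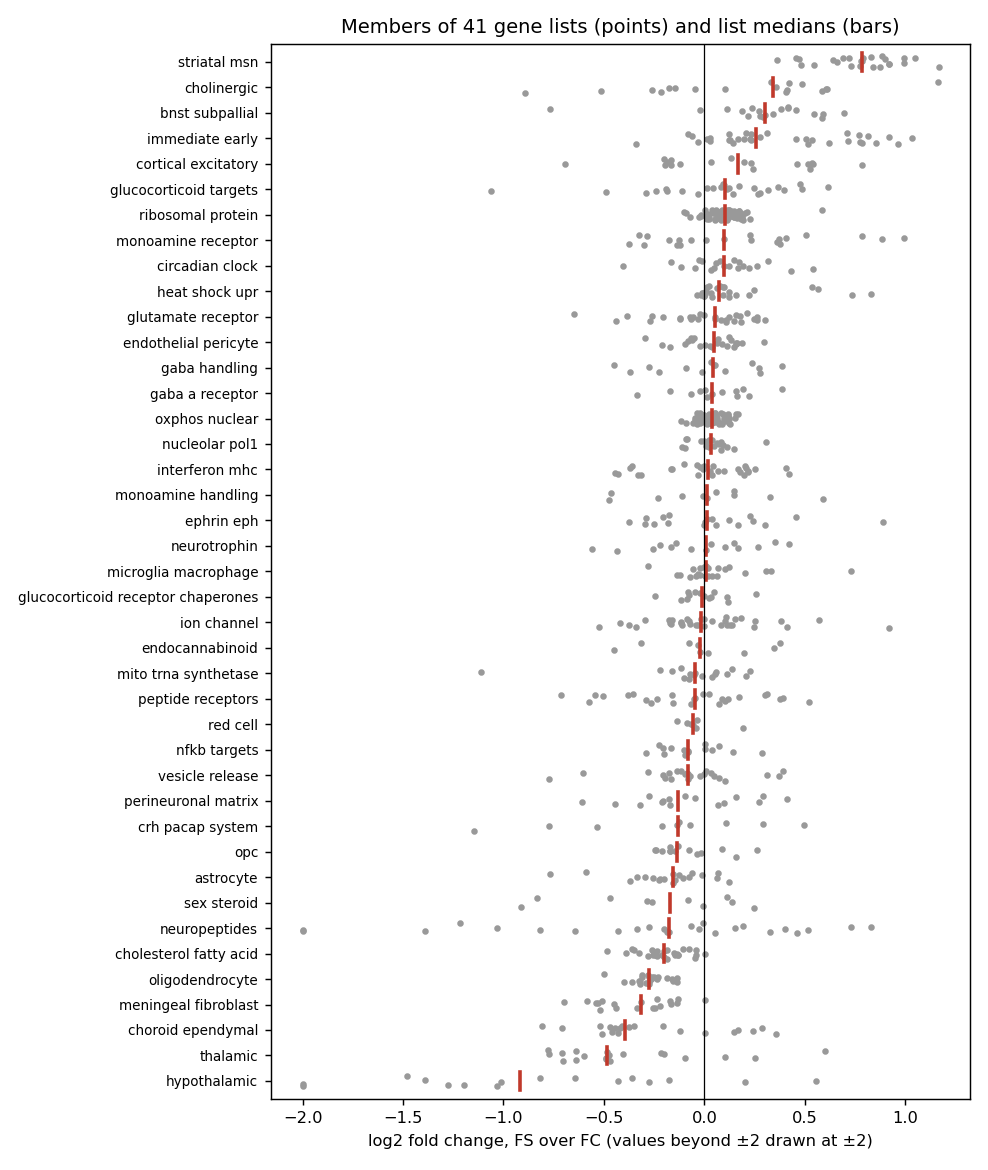
Log2 fold change of FS over FC for the tested members of 41 gene lists (grey points) and the median of each list (red bar), sorted by median. Striatal genes all lie above 0 with a median of 0.79, and all oligodendrocyte genes lie below 0 with a median of −0.27.

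**Figure D5:**
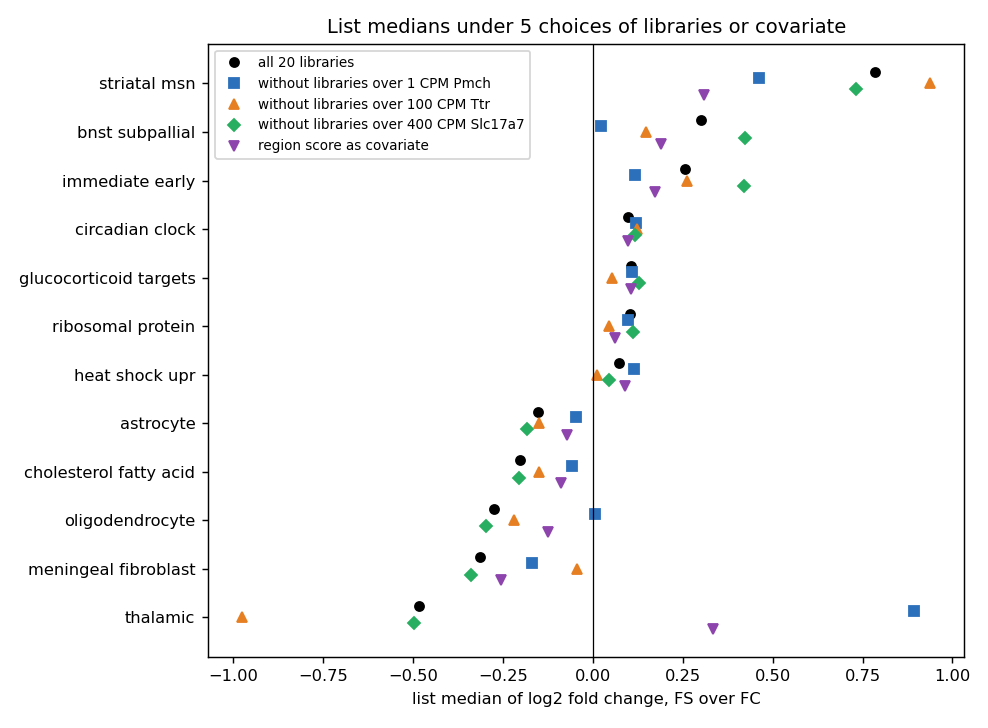
Median log2 fold change of FS over FC for 12 gene lists with all 20 libraries (black) and under 4 other choices of libraries or covariate. The thalamic median is −0.48 with all libraries and 0.89 without those over 1 CPM of Pmch, and the oligodendrocyte median −0.27 is 0.0054 under that choice, while the medians of clock genes and glucocorticoid targets lie between 0.05 and 0.13 under all 5 choices.

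Of the 41 list medians, 24 changed sign under at least 1 of these 4 other choices and 17 did not. Those that kept their sign include the striatal list, immediate early and clock genes, glucocorticoid targets and ribosomal proteins above 0, and astrocyte, cholesterol and fatty acid, meningeal and hypothalamic genes below 0. The region score is built from the striatal and thalamic lists, and Pmch belongs to the hypothalamic list. For these lists the choices are therefore no independent check. Leaving out single libraries was not among the 4 choices.

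The difference between the stress contrasts of females and males was tested for each autosomal gene as an interaction, with no gene at an adjusted edgeR p under 0.05 (0%; smallest 0.587) and 1185 genes (8.27%) at unadjusted p under 0.05. Zfp536 stood at −0.42 in females and −0.05 in males (unadjusted edgeR p of the difference 0.0104), and Taf1d at 0.31 in females and 0.01 in males (0.00665). Slc8a1 stood at −0.72 in females and 0.24 in males (unadjusted edgeR p of the difference 0.00423), and Epha2 at 0.89 in females and −0.17 in males (0.00326). Sgk1, at 0.48 in females and 0.49 in males, had an unadjusted edgeR p of the difference of 0.926. Fosb stood at 0.96 in females and −0.28 in males, and Per1 at 0.32 in females and −0.30 in males, with unadjusted edgeR p of the difference of 0.0338 and 0.0254. Zfp536, Taf1d, Slc8a1 and Epha2 were named for a small p between FS and FC libraries, and Fosb for a small p within its list. The same FS and FC libraries enter the difference, so a small p of the difference is partly built in for these genes and is no independent evidence. Several lists had medians of opposite sign, with 0.26 in females and −0.31 in males for immediate early genes, 0.79 in females and −0.31 in males for striatal genes, −0.48 in females and 0.67 in males for thalamic genes, and −0.27 in females and 0.31 in males for oligodendrocyte genes. The list medians were not tested for a difference between the sexes, and striatal, thalamic and oligodendrocyte markers differed in sign between the sexes beside the immediate early genes. Their part was not tested.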

How the data were processed

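Polyadenylated RNA of the mouse BNST was extracted with Trizol and sequenced as paired reads on an Illumina instrument, per the labels' protocols. For each library the authors deposited a table of raw counts by gene, whole numbers with unequal totals (14863126 to 17621275 in the female libraries). Alignment with HISAT2, counting with featureCounts and the mm10 assembly are named in the submitters' processing notes. Versions, annotation and strand setting are not stated there, so reads of overlapping, antisense or near-identical genes cannot be told apart. Groups and replicate numbers came from the sample titles.

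Of 19214 genes, 19206 were matched by identifier to GENCODE release M21 on GRCm38, and the 8 others held 0.0026% of the counts. Counts were scaled by TMM, filtered with filterByExpr (14884 genes, 14322 of them autosomal) and fitted in a model of 4 group means over 20 libraries with the robust quasi-likelihood test of edgeR 4.0.16 in R 4.3.3, with Benjamini-Hochberg adjustment over all genes tested and a threshold of 0.05. The contrasts were FS against FC and the difference of the stress contrasts, females minus males. The SE was derived from the log2 fold change and its F statistic. The script was tested on simulated data. Chi-square tests of the counts found no pair within the FS or within the FC libraries alike enough to be 1 library deposited again.

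Genes were named by rule among those with a mean of at least 1 CPM, leaving out predicted models: the 10 smallest p in each direction, the 6 largest differences without overlap in each direction, 2 members of each of 41 gene lists by p, and 12 stress and region genes in any case. Members of lists beyond these, such as Mt1, Mt2, Fam107a, Per2, the marker genes of other regions and all list members at unadjusted p under 0.05, were added after their values were seen. The gene lists, the members and the choices of libraries were made with earlier results of these data known. Alternatives were DESeq2 1.42.0, limma 3.58.1 voom with quality weights, DESeq2 size factors, no filter, a filter of 1 CPM in 5 libraries or more, a replicate block, sva 3.50.0 with 1 surrogate variable, the choices of libraries by Ttr and Pmch, the region score as a covariate, the 2 female groups alone, and leaving out each library. The choice by Slc17a7 was added after seeing the data. Results of 3 genes are not reported here, though these genes stayed in the fit and in the list counts.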

Additional observations from a re-analysis of the deposited data

Results flagged for a closer look

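In 18 of the 224 sets of 5 libraries (112 named genes in 2 groups), the highest or lowest library stood apart from the other 4 by Dixon's test, which chance gives in about 1 set in 20. The susceptible library FS5 was the highest for Epha2 (3.10 CPM, next 2.00) and Tbc1d10c (3.24 CPM, next 1.91), 2 genes without overlap between FS and FC libraries, and the lowest for Six3 (57.0 CPM, next 77.7). FS1 was the lowest for Zfp536 (16.3 CPM, next 20.4) and Aldh1a2 (1.98 CPM, next 3.67), and the highest for Rps7 (217 CPM, next 172). FS2 was the lowest for P2rx3 (0.497 CPM, next 1.002). FS4 was the highest for the hypothalamic peptides Hcrt (4.34 CPM, next 0.249), Pmch (8.35 CPM, next 0.396) and Avp (100.2 CPM, next 1.80).

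Among control libraries, FC5 was the highest for Shisa2 (8.43 CPM, next 5.07) and Fos (52.7 CPM, next 33.6) and the lowest for Ucn3 (0.185 CPM, next 2.04), Fgfr3 (119 CPM, next 143) and Oxt (1.78 CPM, next 55.2). FC1 was the highest for Agrp (3.68 CPM, next 1.13) and the lowest for Vegfa (94.1 CPM, next 109), and FC3 was the lowest for St8sia2 (8.49 CPM, next 13.2).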

How the results depend on the processing

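Counts of genes with an adjusted p under 0.05 between FS and FC libraries were 0 under the alternatives run, except when 1 library was left out, where they ranged from 0 to 2, with 2 without FS4 (Nyap1 and Sstr1). For the difference between the sexes they were 0 throughout, beside 1185 genes at unadjusted p under 0.05 with edgeR, 1285 with DESeq2 and 2606 with limma voom. Genes at unadjusted p under 0.05 between FS and FC libraries numbered 831 in edgeR, 1332 in limma voom, 395 with the libraries high in Ttr left out, 270 with those high in Pmch left out, 1248 with those high in Slc17a7 left out, 536 with the region score, 505 with the female groups alone and 480 to 1853 with 1 library left out. For the difference between the sexes the count was 649 with a surrogate variable, 488 and 533 without the Ttr and Pmch libraries, 550 with the region score and 732 to 2238 with 1 library left out. Some choices leave fewer libraries, and the causes of these differences in counts were not tested.

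Whether equal replicate numbers mark pairs is not stated in the labels. The deviations of same-numbered FS and FC libraries correlated at 0.10, −0.44, 0.36, −0.11 and 0.64. Libraries with different numbers correlated between −0.63 and 0.57, so FS5 and FC5 had the highest value of all pairs. Both are high in Slc17a7, so a shared day or batch cannot be told apart from similar tissue. With the replicate block the count of genes called was 0, with 801 at unadjusted p under 0.05, and Ttr stood at 0.59.

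Of 112 named genes, 95 kept the sign of their log2 fold change in all 22 alternatives and 17 reversed at least once, 32 values of 2464. Without the libraries over 1 CPM of Pmch, Srd5a1 stood at 0.015, Cux2 at 0.033, Mobp at 0.055, Myrf at 0.024, Slc29a4 at 0.026, Chrm3 at 0.034, Crh at −0.19, Slitrk6 at 0.81, Prlr at 0.28, Nr3c1 at 0.050 and Ttr at 5.33. Without the libraries over 100 CPM of Ttr, Rarres2 stood at −0.062, Nr3c1 at 0.0056, Ttr at 0.94, Oxt at 0.35, Avp at 0.33 and Slc17a7 at 0.21. With the region score, Adcyap1 stood at 0.061, Slitrk6 at 0.30, Prlr at 0.085 and Ttr at 0.96. With 1 surrogate variable, Slitrk6 stood at 0.25, Prlr at 0.055 and Ttr at 1.26. With 1 library left out, Rarres2 ranged from −0.060 to 0.50, Fkbp5 from −0.0061 to 0.18, Ttr from −2.17 to 0.33 and Slc17a7 from −1.57 to 0.55. Depth limits genes near or under 1 CPM, such as Tnfrsf10b, P2rx3, Hcrt and Pmch in most FS libraries and Epha2 in FC libraries. Each FS library held between 14863126 and 17621275 counts, so 1 CPM stands for few reads.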
